A study of Mus musculus with 8 samples.

Results

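Sites that carried a strong DNA hydroxymethylation signal in every library were examined in adult oligodendrocyte progenitor cells (aOPC) and adult oligodendrocytes (aOL) sorted from mouse brain. A strong site was a CpG site, read on a given strand, that reached at least 5 CPM in each of the 4 libraries. CPM is the count at the site divided by the summed counts of its library, times 1000000. Sites had to lie on an autosome, and a short interval of chromosome 2 named in the rule was left out. In all, 14027 of 1401171 covered autosomal sites met this rule, which is 1% of them, and 1387144 other covered sites served as the comparison. The strong sites were selected on their counts, so their levels are a description and carry no test.

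The cells came from C57BL/6 mice at postnatal day 60. Progenitors were sorted from Pdgfra-H2BEGFP mice, in which the Pdgfra locus drives a nuclear EGFP, and oligodendrocytes from Plp-EGFP mice, an EGFP reporter line; each sort holds what its reporter marks. Hydroxymethylation was profiled by reduced representation hydroxymethylation profiling (RRHP) and transcripts by RNA-sequencing, with DNA and RNA taken from the same cell pellets. Each population had 2 RRHP and 2 RNA libraries, numbered replicates 2 and 3, and replicate 1 was not analysed here. The labels do not say whether replicates came from separate animals, so every p-value measures the spread between these libraries only. For the aOL RRHP samples the tissue entry gives the Pdgfra reporter, so groups were taken from sample titles. The aOL cells are pre-myelinating by the RNA titles and myelinating by the protocol.

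5-hydroxymethylcytosine (5hmC) arises when TET enzymes oxidize 5-methylcytosine. It is abundant in the brain, where it lies mostly in the bodies of genes and is scarce at CpG islands, the CpG-rich stretches that hold many gene starts. In RRHP the 5hmC of a CCGG site is glucosylated, which blocks the enzyme MspI from cutting there a second time, so that the adapter stays on and the end of the fragment is read. The assay therefore reads CCGG sites alone, and in the GRCm38 reference a CCGG was found at every covered autosomal site.

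Summed RRHP counts for aOPC replicates 2 and 3 were 7113237 and 17121440, and for aOL 15923775 and 27057859. The minimum of 5 CPM equalled 36, 86, 80 and 136 reads in these libraries, so the values of aOPC replicate 2 were the least precise. In RNA, Pdgfra was at 7.54 and 5.47 (log2 level) in aOPC and at 4.98 and 1.63 in aOL. Mog, a myelin gene, ran against the labels, at 17.59 and 17.76 in aOPC and lower, at 16.89 and 17.16, in aOL. The median of 13 OPC markers was 9.34 and 7.07 in aOPC against 8.34 and 9.33 in aOL, so the groups overlapped, and that of 20 oligodendrocyte and myelin markers was 17.31 and 16.75 in aOPC against 17.40 in both aOL libraries. Myelin transcripts were thus among the highest in the libraries labelled aOPC as well. In these bulk samples, fewer cells of a type and less RNA per cell cannot be told apart.

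The sequences below show what was read at strong sites. Each is the first 51 bases of the MspI fragment from the GRCm38 reference (RefSeq), 5′ to 3′ on the strand of the read, with the CCGG in capitals. The first was, outside Rn45s, the highest site whose first 50 bases occur once among the CCGG ends of the reference, the next pair stand for the repeats that held many of the highest values, the chromosome 9 and chromosome 17 intergenic sites had the largest called rise and the largest called decrease in aOL, and the last 4 lie in genes of the oligodendrocyte lineage described below.
Intergenic, chr6:79307264-79307314, plus strand: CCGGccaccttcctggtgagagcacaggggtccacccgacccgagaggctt
Rn45s, chr17:39843263-39843313, minus strand: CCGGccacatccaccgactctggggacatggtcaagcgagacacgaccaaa
Rn4.5s, chr6:47752632-47752682, plus strand: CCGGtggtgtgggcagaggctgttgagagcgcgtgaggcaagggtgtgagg
Intergenic, chr9:123932985-123933035, plus strand: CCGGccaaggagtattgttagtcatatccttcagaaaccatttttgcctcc
Intergenic, chr17:35750689-35750739, minus strand: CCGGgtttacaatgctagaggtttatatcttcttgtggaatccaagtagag
Elovl7 intron, chr13:108242438-108242488, plus strand: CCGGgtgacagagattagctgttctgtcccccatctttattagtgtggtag
Tcf7l2 intron, chr19:55927921-55927971, plus strand: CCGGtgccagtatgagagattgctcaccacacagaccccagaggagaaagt
Cspg4 intron, chr9:56890497-56890547, minus strand: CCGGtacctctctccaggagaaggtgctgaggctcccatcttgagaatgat
Fyn intron, chr10:39510799-39510849, plus strand: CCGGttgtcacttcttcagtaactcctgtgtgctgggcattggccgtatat

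The strong sites held 13.07% of the counts of aOPC replicate 2 (Wilson 95% interval 13.04 to 13.09), 13.27% of aOPC replicate 3 (13.25 to 13.28), 12.79% of aOL replicate 2 (12.77 to 12.8) and 12.13% of aOL replicate 3 (12.12 to 12.14). These intervals cover counting error only, since reads without molecular identifiers are not independent molecules. The median strong site had 57, 146, 130 and 202 reads in the 4 libraries in the same order, which is 8.01, 8.53, 8.16 and 7.47 CPM. The median other site had 2, 3, 2 and 5 reads, and between 14.7% and 32.9% of the other sites had no read in a given library. A count of 0 allows up to 3 counts, or between 0.111 and 0.422 CPM.

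Most strong sites lay close to the threshold. In its lowest library, the median strong site reached 6.47 CPM, with quartiles of 5.62 and 8.06, and 12560 of the sites (89.5%) stayed under 10 CPM there. Just inside the threshold were sites in introns of Ptk2, a focal adhesion kinase, and Ccdc60 and an intergenic site of chromosome 14, each at 5.02 CPM in its lowest library. Just outside were sites in exons of Pbx2 and Dnm2 and an intergenic site of chromosome 8, each at 4.99 CPM. The lowest library was aOL replicate 3 at 5808 sites, aOPC replicate 2 at 4917, aOL replicate 2 at 2176 and aOPC replicate 3 at 1126.

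Levels were close across libraries. The highest library exceeded the lowest by a median of 1.42 times and by 1.86 times at the 90th percentile, with a maximum of 20.9 times. Across strong sites, the Pearson correlation of log2 CPM was between 0.82 and 0.87 among aOPC replicate 3 and both aOL libraries, and between 0.57 and 0.64 for aOPC replicate 2 with each of the others. These coefficients describe 14027 sites that share libraries, a lower bound and sequence context, and aOPC replicate 2 had the fewest reads.

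Only 94 strong sites reached 20 CPM in every library, and 55 of these lay in the repeats Rn45s or Rn4.5s or had first 50 bases found at several CCGG ends of the reference. The highest value was an intronic site of Gnb1l (chr16:18533257, plus strand), whose first 50 bases occur at 2 CCGG ends. It had 320 and 269 CPM in aOPC and 368 and 504 CPM in aOL. The second, in Rn45s (position 39843312 of chromosome 17), had 188 and 193 CPM in aOPC and 266 and 443 CPM in aOL. An intergenic site of chromosome 6 (79307265), shown above, had 179 and 231 CPM in aOPC and 221 and 298 CPM in aOL. Next came an intergenic site of chromosome 8 (4577097), with 190 and 165 CPM in aOPC against 143 and 331 CPM in aOL. The remaining 6 of the 10 highest sites were an intronic site of Sfi1, at 112 and 141 CPM against 113 and 152 CPM, and 5 more sites of Rn45s. The aOL libraries were above both aOPC libraries at the Gnb1l site and at all the Rn45s sites among these 10. The groups overlapped at the chromosome 6, chromosome 8 and Sfi1 sites. In the edgeR test of single sites described below, the Gnb1l site (adjusted p = 0.593) and the first Rn45s site (adjusted p = 0.177) were not called.

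Rn45s, the precursor of the 18S, 5.8S and 28S ribosomal RNAs, had 85 strong sites among 134 covered sites (63.4%), all between positions 39843014 and 39848753 of chromosome 17. Rn4.5s, a small RNA gene in tandem repeats, had 47 among 231 covered sites (20.3%) on chromosome 6, from position 47654802 to 47753782. For 46 of these 47 sites the first 50 bases occurred at several CCGG ends of the reference. Both families exist in many genomic copies, so a CPM at such a site adds up copies and cannot be compared per copy with a unique site. Together their strong sites held 0.479%, 0.341%, 0.408% and 0.608% of the counts of the 4 libraries.

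Strong sites were intronic more often and lay in promoters less often than other covered sites. With each site placed in a single class in the order promoter, exon, intron, intergenic, 6745 strong sites (48.1%) were intronic, against 29.9% of other sites. Exons held 1438 strong sites (10.3% against 6.7%), intergenic sequence 5334 (38% against 48.8%) and promoters 510 (3.64% against 14.6%). The promoter class of the deposited annotation reaches from 2000 bases before to 500 bases after a gene start. As a rate, 1.6% of covered intronic sites, 1.52% of exonic, 0.782% of intergenic and 0.251% of promoter sites were strong. The exon excess depended on the order of classes. With overlaps allowed, exons held 11% of strong and 12% of other sites, and 0.917% of their covered sites were strong. Within the strong sites outside Rn45s and Rn4.5s, levels were much alike across classes. Medians of the lowest library were 6.58 CPM in introns, 6.33 in exons, 6.36 in promoters and 6.47 in intergenic sequence. The 5 CPM minimum that every strong site meets limits how far these medians can differ.

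CpG islands held 119 strong sites (0.848%) against 12.3% of the other covered sites, and 64 of the 119 lay in Rn45s. Among sites on fragments of 40 to 400 bases whose first 50 bases occur once, 0.0794% of CpG island sites were strong, compared with 1.8% of all such sites. The 10 highest CpG island sites were all in Rn45s, between 188 and 32.3 CPM in their lowest library. Outside Rn45s the highest was the promoter of Sfi1, a centrin-binding protein, at 51.7 and 32.9 CPM in aOPC and 23.9 and 50.3 CPM in aOL. Next came a site annotated to both the promoter and an exon of the zinc finger gene Gm13238. It was at 16.3 and 26.3 CPM in aOPC against 18.0 and 17.1 CPM in aOL, and its first 50 bases occur at 3 CCGG ends. Further down were exonic island sites read once, in Cactin, Caskin2 and Epha2, an ephrin receptor, at 10.4, 10.1 and 9.7 CPM in their lowest library. These sites outside Rn45s were chosen after their values were seen.

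By distance, strong sites were rarest directly beside gene starts. Within 500 bases downstream of the nearest protein-coding gene start (GENCODE M21, GRCm38), 43 of 88831 covered sites (0.0484%) were strong, and within 500 bases upstream 98 of 41928 (0.234%). The rate rose to 0.262% between 500 and 1000 bases downstream, 0.883% between 1000 and 2000 bases and 1.35% between 2000 and 5000 bases, and stayed between 1.31% and 1.45% out to 100000 bases. Upstream it reached 1.6% between 1000 and 2000 bases, the highest rate of any bin, and was 1.08% between 2000 and 5000 bases. The promoter class also spans the former distance, so its low rate reflects the sites nearest to gene starts. Restricted to fragments of 40 to 400 bases read once, the rates were 0.0601% within 500 bases downstream and 2% between 2000 and 5000 bases.

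**Figure D1:**
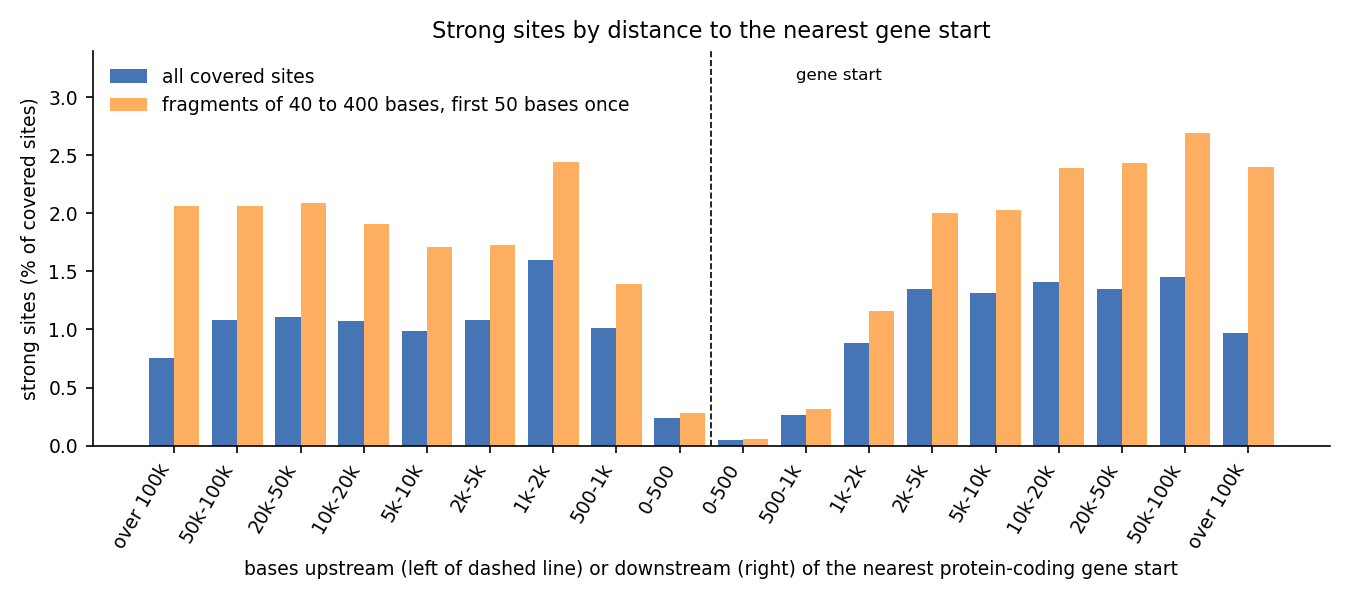
Percent of covered sites that were strong (y axis) by distance in bases to the nearest protein-coding gene start (x axis, upstream left of the dashed line, downstream right), for all covered sites (blue) and for sites on fragments of 40 to 400 bases whose first 50 bases occur once (orange). The lowest bars are the 0 to 500 base bins, at 0.234% upstream and 0.0484% downstream.

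The strong sites were concentrated on MspI fragments of intermediate length. Of the strong sites, 13846 (98.7%) were read from fragments of 40 to 400 bases in the reference, against 63.6% of other covered sites. The rate was 0.641% for fragments of 40 to 59 bases, 2.5% for 80 to 99 bases, 2.07% for 150 to under 200 bases and 1.37% for 250 to under 300 bases. It fell to 0.3% for 300 to under 400 bases and was at most 0.0562% for fragments under 40 or of at least 400 bases. Fragment length also bears on which fragments a library holds, and the 181 strong sites outside this range include the Gnb1l and Sfi1 sites above, on reference fragments of 407 and 602 bases.

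Strong sites were poorer in CpGs and in GC than the other sites. Their first 50 bases held 50.1% GC (SD 8.84, n = 14027 sites) and 1.72 CpGs on average, against 55.9% GC (SD 11.1) and 2.47 CpGs. Among sites on fragments of 40 to 400 bases read once, 2.61% were strong where the CCGG held the only CpG, 1.31% with 3 CpGs and 0.0651% with 8 or more. The first 50 bases occurred once in the reference for 92.8% of strong sites and 74.1% of others, and at least 50% of these bases were repeat-masked at 18.5% of strong and 38.2% of other sites.

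**Figure D2:**
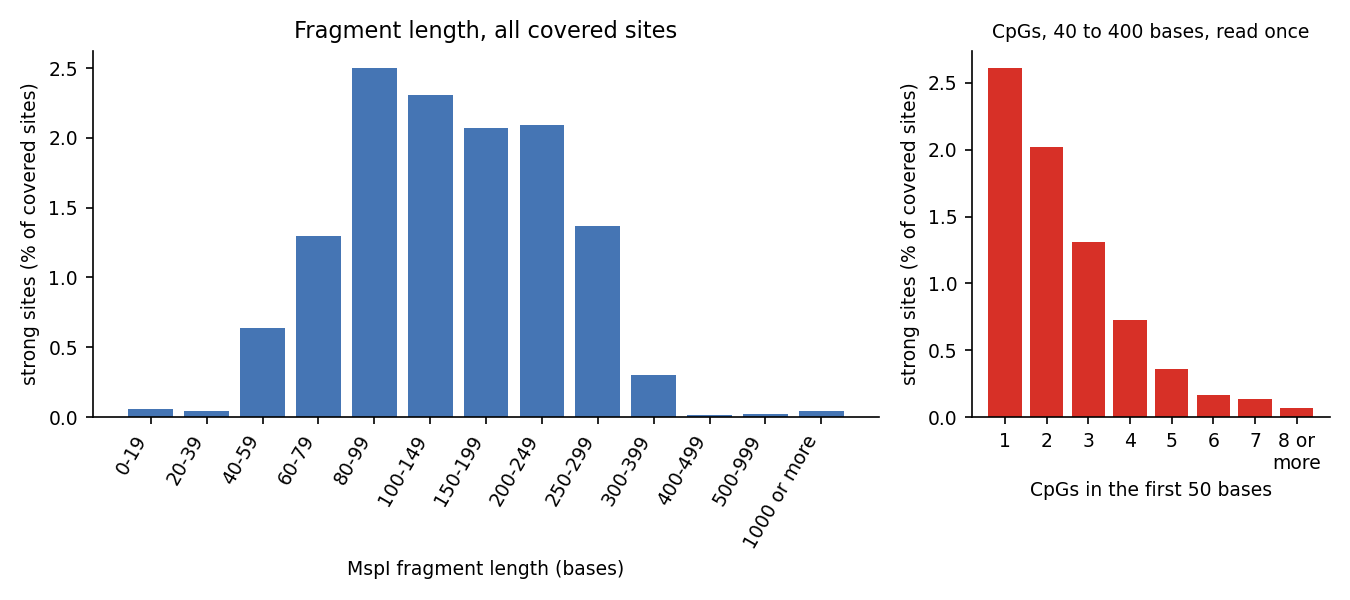
Percent of covered sites that were strong (y axes) by the length of the reference MspI fragment in bases (left) and by the number of CpGs in the first 50 bases (right, sites on fragments of 40 to 400 bases read once). The rate peaks at 2.5% for 80 to 99 bases and declines from 2.61% with 1 CpG to 0.0651% with 8 or more.

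The bases next to the CCGG also differed between strong and other sites. Among the 12949 strong sites on fragments of 40 to 400 bases read once, 6988 (54%) had a T directly after the CCGG on the read strand, against 17% of the other sites of this kind. As a rate, 5.5% of covered sites with CCGGT were strong, compared with 1.2% for CCGGG, 0.918% for CCGGA and 0.802% for CCGGC. In each library taken alone, between 8.08% and 10.6% of CCGGT sites reached 5 CPM, against 1.45% to 3% of sites with another base there. Mean levels at CCGGT sites were 1.79 and 1.91 CPM in the aOPC libraries and 1.89 and 1.72 CPM in the aOL libraries, against 0.798 to 0.974 CPM at sites with the other bases.

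The base before the CCGG was a G at 325 strong sites (2.51%), against 24.8% of other sites. An A there was found at 34.2% of strong and 17.1% of other sites. By both neighbours, 9.54% of covered ACCGGT sites were strong (2246 of 23540) and 0.0395% of GCCGGA sites (14 of 35462). Farther from the CCGG the shares drew closer, with a T at the fifth base after it in 29.6% of strong and 23.3% of other sites and at the tenth in 26.8% and 23.2%. The excess of T after the CCGG held within classes: the rate with T against the highest other base was 8.38% against 2.22% in introns, 4.83% against 1.01% in intergenic sequence, 5.95% against 1.34% in exons and 1.11% against 0.193% in promoters. It was present in fragments under 100 bases (4.68% against 0.811%) and of 200 to 400 bases (3.72% against 0.907%). With a minimum of 10 CPM in every library 64.9% of 1338 such sites had the T, with 3 CPM 44.5% of 36646, and with 20 CPM 36.5% of 63. Each motif was matched on the read strand only. What part the steps of the assay have in these shares was not tested.

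The CCGG is palindromic, so each site has a partner on the other strand, read from the neighbouring fragment. Where this partner was covered on a fragment of 40 to 400 bases, it was strong for 20.5% of 3843 strong sites and for 1.43% of 464533 other sites. The other end of the same fragment, where covered and within that length, was strong for 11% of 13831 strong sites and for 1.41% of 870803 others. Most strong signals therefore had no strong signal on the opposite strand, where the median partner averaged 2.8 CPM over the libraries.

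Strong sites lay near each other more often than other covered sites lay near them. Another strong site was found within 100 bases of 9.24% of strong sites, within 1000 bases of 21% and within 10000 bases of 35.2%, whereas a strong site lay within these distances of 1%, 4.17% and 16.8% of other covered sites. Partners on the other strand and at the other fragment end are included in these shares. With gaps of at most 1000 bases, 2946 strong sites formed 1315 runs of at least 2, of which 1127 had 2 sites, 149 had 3 and 39 had 4 or more.

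The longest run was Rn45s, with 85 strong sites over 5740 bases. The next had 6 strong sites of 14 covered within 248 bases in an intron of Serinc5, a serine incorporator of the plasma membrane (position 92646490 to 92646737 of chromosome 13). Mean levels of its 6 sites were 6.42 and 7.05 CPM in aOPC and 7.19 and 5.97 CPM in aOL. The reference there is a tandem repeat with a CCGG every 41 bases, and the other 8 covered sites of the run reached between 1.12 and 4.78 CPM in their lowest library. It is printed here, on the plus strand with each CCGG in capitals, because the run lies within this repeat.
Serinc5 intron, chr13:92646475-92646752, plus strand: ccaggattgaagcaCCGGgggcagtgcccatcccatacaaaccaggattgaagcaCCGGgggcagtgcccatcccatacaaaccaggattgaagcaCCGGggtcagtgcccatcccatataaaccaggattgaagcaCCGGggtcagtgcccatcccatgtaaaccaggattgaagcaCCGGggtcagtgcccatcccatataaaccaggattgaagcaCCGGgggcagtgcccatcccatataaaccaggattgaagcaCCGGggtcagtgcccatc

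Of the runs of 5 sites, the shortest were in Cebpz (149 bases, chromosome 17), Prmt8, which encodes an arginine methyltransferase of the brain (390 bases, chromosome 6), and D630045J12Rik (507 bases, chromosome 6). In Prmt8, 5 of 7 covered sites were strong, with means of 8.72 and 9.94 CPM in aOPC and 8.83 and 7.74 CPM in aOL. In Cebpz all 5 covered sites were strong, at 6.83 and 9.64 CPM against 9.46 and 7.56 CPM. No run other than Rn45s had more than 6 strong sites.

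Strong sites were spread over many genes. Of 19120 genes with a covered site in an exon or intron, 4446 (23.3%) held at least 1 strong site: 2671 held 1, 1488 held 2 to 4, 247 held 5 to 9 and 40 held 10 or more. Over all gene bodies, 1.27% of covered sites were strong. After Rn45s, Nav2, a cytoskeletal navigator protein, and Cdh13, a GPI-anchored cadherin, had 18 strong sites each, among 559 and 641 covered sites. Fto, an RNA demethylase, and Msi2, an RNA-binding protein, had 16 each, and Agap1, an Arf GTPase-activating protein, and the oxidoreductase gene Wwox 15 each. Dst, which links cytoskeletal filaments, Cmip and Prkce, a protein kinase C, had 14 each. Wdfy3, an autophagy adaptor, the ubiquitin ligase gene Rnf220 and Mir1195 had 13 each. Dock9, an activator of the GTPase Cdc42, the transcription factor gene Tcf4, the adhesion molecule gene Opcml, the ephrin receptor gene Ephb1, the membrane scaffold gene Ank3, the glutamate receptor gene Grik4 and the postsynaptic scaffold gene Anks1b had 12 each.

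These are long genes with many covered sites, and beside Rn45s the share of strong sites among the covered ones ranged from 1.83% in Wwox to 6.13% in Wdfy3. All 19 were above the 1.27% of all gene bodies, which the choice by number of strong sites favours. Mir1195 is 98 bases long in the RefSeq table, yet the deposited annotation gave it 697 covered sites, so its sites are those of a longer or repeated feature and are not described further. In Cdh13 the 18 sites lay in introns between positions 118325816 and 119246450 of chromosome 8. The site with the highest lowest library was at 12.7 and 18.1 CPM in aOPC and 15.7 and 11.3 CPM in aOL. In Nav2 the site so chosen was at 13.6 and 13.4 CPM in aOPC and 16.6 and 15 CPM in aOL. At the Cdh13 site the groups overlapped, and at the Nav2 site both aOL libraries were higher.

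**Figure D3:**
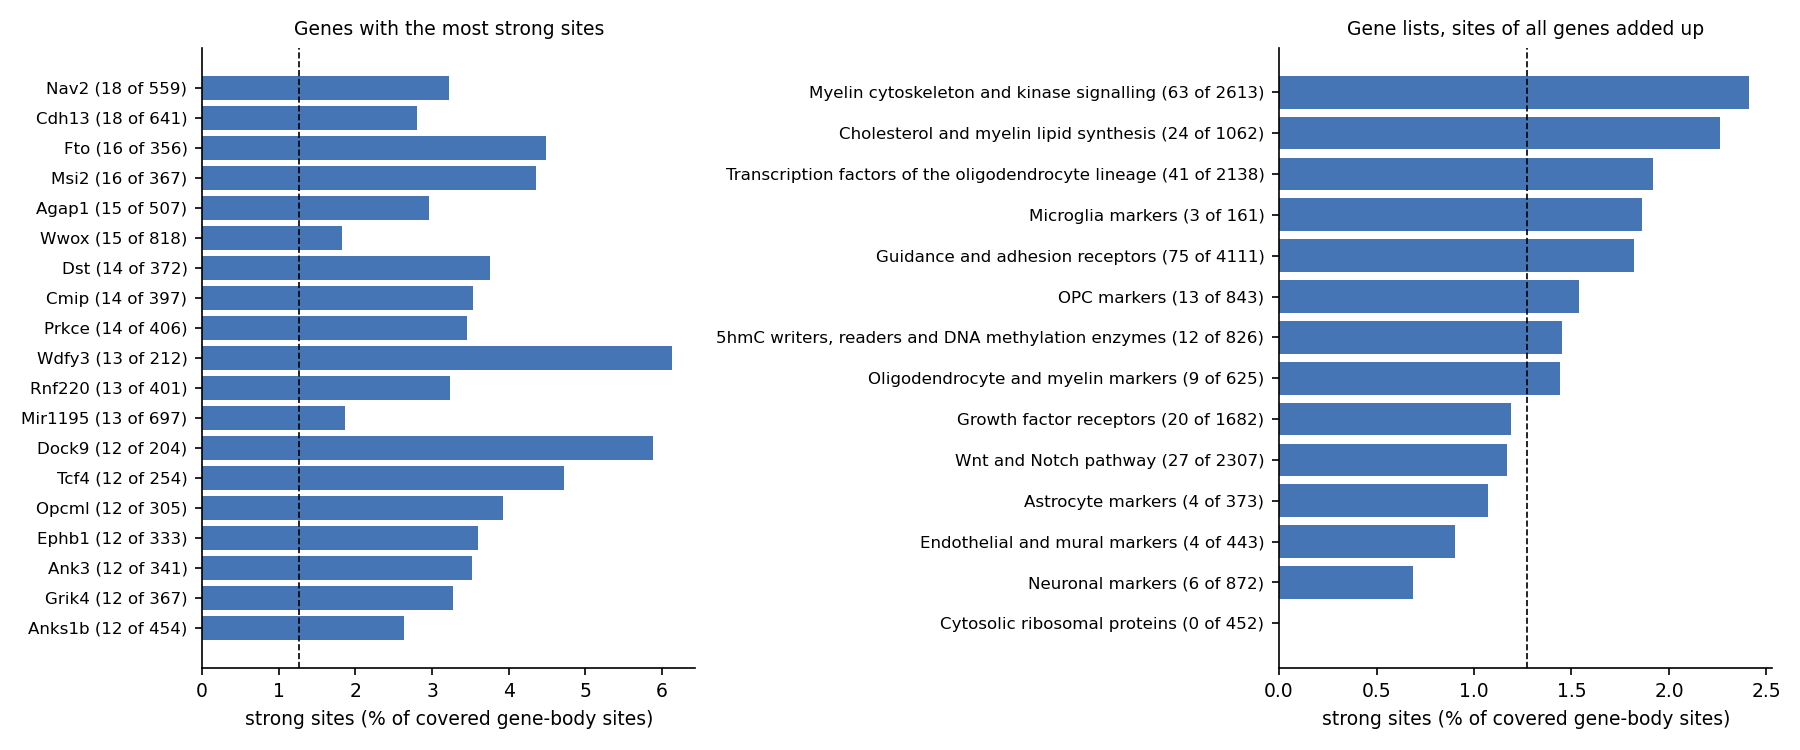
Percent of covered gene-body sites that were strong (x axes), with strong and covered sites in brackets, for 19 of the 20 genes with the most strong sites (left) and for 14 gene lists with the sites of their genes added up (right). Rn45s is left out on the left, at 64.9%, or 85 of its 131 covered gene-body sites. The dashed line is the 1.27% of all gene bodies, and cytosolic ribosomal proteins stand at 0.

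Gene lists of the lineage, drawn up with earlier results known, differed in how many members held a strong site, beside 23.3% of all genes; no test was made of these shares, and lists of long genes hold more sites. Guidance and adhesion receptors, which steer processes and contacts, had the largest share, 25 of 33 genes (75.8%), with 12 strong sites in Ephb1 and 5 each in the netrin receptor genes Dcc and Unc5b, in Nfasc and in Sema5a. Myelin cytoskeleton and kinase signalling genes had 18 of 31 (58.1%), with 12 sites each in Ank3 and Dock9, 6 in Pik3r1, a regulatory subunit of PI3 kinase, and 5 in Fyn, a kinase active during myelination. Of 24 lineage transcription factors, 11 held strong sites, led by Tcf7l2 with 9 and Zfp536 and Sox5 with 7 each. Growth factor receptors had 8 of 17, with 5 sites each in Igf1r and Ntrk2, and Wnt and Notch pathway genes 12 of 28, with Tcf7l1 at 5 after Tcf7l2. Counted by sites, 2.41% of the covered sites of the myelin cytoskeleton list, 1.92% of the transcription factors and 1.82% of the guidance list were strong, above the 1.27% of all gene bodies. The growth factor receptors, at 1.19%, and the Wnt and Notch genes, at 1.17%, were below it.

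Among 28 cholesterol and myelin lipid genes, 11 held strong sites, and these were 2.26% of the list's 1062 covered sites. Elovl7, a fatty acid elongase, accounted for 7 of the 24, among 47 covered sites (14.9%), followed by Elovl6 with 4 and Fasn, the fatty acid synthase, with 3. The 7 Elovl7 sites fell in introns between positions 108242439 and 108263609 of chromosome 13, and 4 of them were both ends of fragments of 203 and 75 bases. The ends of the 203-base fragment had 11 and 9.46 CPM in aOPC and 11 and 11.2 CPM in aOL at the plus end, shown above, and 9.0 and 10.5 against 14.3 and 13.1 CPM at the minus end. The libraries were nearly alike at the plus end apart from aOPC replicate 3, and both aOL libraries were higher at the minus end. In the edgeR test of single sites described below, the minus end was not called (log2 fold change 0.37 ± 0.25, adjusted p = 0.712).

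In Tcf7l2, a transcription factor of Wnt signalling and of oligodendrocyte maturation, 8 of the 9 strong sites were intronic and 1 exonic. The highest had 10.7 and 11.9 CPM in aOPC and 9.86 and 9.31 CPM in aOL. Enzymes and readers of DNA methylation had strong sites in 6 of 19 genes, with 3 each in Tet3 and Dnmt3a and 2 in Tet2 and Idh2. The Tet genes encode the dioxygenases that make 5hmC, and Dnmt3a a DNA methyltransferase.

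OPC markers held strong sites in 7 of 14 genes, among them Cspg4, which encodes the progenitor antigen NG2, with 4 of 87 covered sites, and the receptor genes Ptprz1 and Gpr17 with 2 each. Oligodendrocyte and myelin markers held them in 6 of 19, with 4 in Mbp, myelin basic protein, and 1 each in Mag, Mobp, Trf, Bcas1 and Enpp2. By sites, 1.54% of the covered sites of the OPC markers and 1.44% of those of the myelin markers were strong. The Cspg4 site shown above was at 11.4 and 8.0 CPM in aOPC and 8.35 and 6.99 CPM in aOL, and the Mobp site at 5.2 and 9.58 CPM in aOPC and 6.47 and 6.76 CPM in aOL, so both overlapped between groups. Astrocyte, microglia, endothelial and neuronal markers had strong sites in 2 genes each, of 11, 11, 10 and 11, and 1.07%, 1.86%, 0.903% and 0.688% of their covered sites were strong. None of 34 cytosolic ribosomal protein genes, which are short and highly transcribed, had a strong site among 452 covered sites, which allows a share of up to 0.664% by the 3-count limit for sites.

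The next question was whether strong sites differed between aOL and aOPC. The rule did not use the difference, but it used the same counts. A floor in all libraries limits how far a strong site can differ, so the shares over all sites below are given as background and nothing is read from the contrast with them. All 14027 strong sites were tested with edgeR among 443062 sites, and 4 were called higher and 18 lower in aOL at an adjusted p under 0.05. Those are 0.0285% and 0.128% of the strong sites, against 1.21% called higher and 1.08% called lower over all sites tested. The median log2 fold change of strong sites was -0.19 (quartiles -0.38 and -0.02), against -0.01 over all tested sites (quartiles -0.36 and 0.36).

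The number and direction of the called strong sites depended on the settings. With no scaling beyond library totals, 17 were called higher and 11 lower (0.2% together, against 2.51% of all sites tested), and with no filter 32 and 7 (0.278% against 1.55%). With at least 10 reads demanded in every library, 10 and 3 were called, which is 0.0927% against 0.286% of all sites. Without aOPC replicate 3 the numbers were 4 and 90 (0.67% against 0.687%). Without aOPC replicate 2 they were 15 and 27 (0.299% against 2.64%), without aOL replicate 2 13 and 2 (0.107% against 1.78%), and without aOL replicate 3 2 and 5 (0.0499% against 2.07%). The median of all tested sites moved to 0.14 without the filter, where that of strong sites was -0.01. In CPM, both aOL libraries were above both aOPC libraries at 1086 strong sites and below both at 4101, which is 7.74% and 29.2% of them. Over all tested sites these shares were 23.3% and 17.2%.

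Among the called sites, the largest rise was at an intergenic site of chromosome 9 (123932986, shown above). It had 9.98 and 7.18 CPM in aOPC and 105 and 150 CPM in aOL, a log2 fold change of 3.80 ± 0.31 (SE; edgeR, adjusted p = 6.53e-06). It was the only strong site called higher whose first 50 bases occur once and that lies outside the ribosomal repeat. An intronic site of Eftud1, which encodes a ribosome assembly GTPase, rose by 2.17 ± 0.26 (edgeR, adjusted p = 1.24e-04), from 5.2 and 5.49 CPM to 26.7 and 25.1 CPM, and its first 50 bases occur at 8 CCGG ends. The others were sites of Rn45s, of which that at position 39846638 of chromosome 17 rose by 1.20 ± 0.24 (edgeR, adjusted p = 0.0129), from 118 and 133 CPM to 240 and 379 CPM. That call was lost without aOL replicate 3, where the log2 fold change was 0.82, and without aOPC replicate 3 (1.16). The groups did not overlap at any of the 4 sites.

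All 18 strong sites called lower were read once. The largest decrease was at an intergenic site of chromosome 17 (35750738, shown above), from 26.3 and 22.1 CPM in aOPC to 6.66 and 5.54 CPM in aOL, a log2 fold change of -2.11 ± 0.27 (SE; edgeR, adjusted p = 2.12e-04). An intergenic site of chromosome 18 fell by 1.69 on the log2 scale (edgeR, adjusted p = 0.0249), from 33.3 and 14.8 CPM to 6.78 and 9.35 CPM. Without aOPC replicate 2 the change was -0.84 and the call was lost, as it was without aOL replicate 2 (-1.47), with DESeq2 (-1.73) and with at least 10 reads in every library (-1.47). At position 20229248 of chromosome 12, an intergenic site fell by 1.68 (edgeR, adjusted p = 0.016), from 34.2 and 17.8 CPM to 7.1 and 10.4 CPM. It changed by -0.98 without aOPC replicate 2, where it was still called, and by -1.42 without aOL replicate 2, where it was not. At these last sites the aOPC libraries lay far apart but above both aOL libraries. The rest lay in introns of Fam189a1, Tns3, a focal adhesion protein, Cdh20, a cadherin, Efhd1 and Pdxdc1, in the promoter of Nfkbia, which encodes an inhibitor of NF-κB, and in intergenic sequence.

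**Figure D4:**
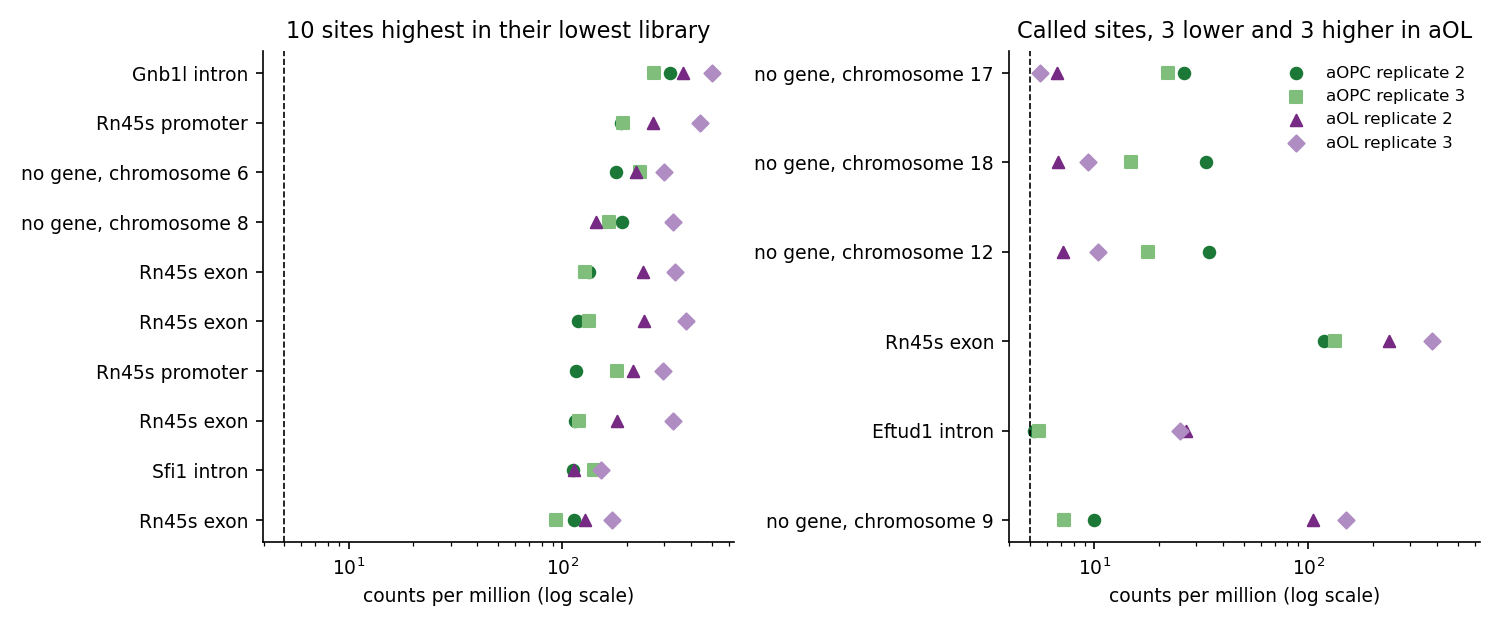
CPM (x axes, log scale) in each RRHP library for the 10 strong sites highest in their lowest library (left) and for the 3 called sites with the largest decrease and the 3 with the largest increase in aOL (right). The dashed line is the 5 CPM minimum. The chromosome 9 site has 105 and 150 CPM in aOL against 9.98 and 7.18 CPM in aOPC.

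Counts were also added up over gene bodies, which uses every covered site of a gene. Of 18488 gene bodies tested with edgeR, 0.162% were called higher and 0.687% lower in aOL. Among the 4446 gene bodies with a strong site, 4 were called higher (0.09%) and 16 lower (0.36%), all in the same test. None of the 20 genes with the most strong sites was called, their smallest adjusted p was 0.752, and beside Rn45s their log2 fold changes were between -0.23 and 0.21. Leaving out a library moved these 20 calls to 981 without aOPC replicate 3, which is 22.1% of the genes with strong sites against 22.7% of all gene bodies, and to 81 without aOPC replicate 2 (1.82% against 3.29%). They were 5 without aOL replicate 2 (0.112% against 0.481%) and 6 without aOL replicate 3 (0.135% against 0.454%). Of the lineage lists, Mobp, a myelin-associated protein gene with 12 covered sites, was the only member with a strong site that was called, with a log2 fold change of -1.16 ± 0.19 (SE; edgeR, adjusted p = 0.0195). Its gene body had 15 and 19 CPM in aOPC and 7.54 and 8.02 CPM in aOL, so the groups did not overlap. The call was lost without aOL replicate 2 (-1.10) and without aOL replicate 3 (-1.20).

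RNA levels were slightly higher for genes with strong sites. Of genes with a strong site, 71.1% were among the 11315 genes with an RNA value, against 50.3% of genes without; the former had a median of 50 covered sites and the latter 16. Among genes with 20 or more covered sites the shares were 74% and 61.9%. The median log2 level of 3159 genes with a strong site was 10.77 and 10.62 in aOPC against 10.88 and 10.86 in aOL, and that of 7387 genes without was 10.53 and 10.59 against 10.48 and 10.49. The difference was 0.25, 0.03, 0.41 and 0.37 log2 units in the 4 libraries, so in aOPC replicate 3 it was near 0.

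By share rather than presence, the relation had no steady rise. Among genes with 20 or more covered sites, the median in aOL replicate 2 was 10.74 with no strong site, 9.56 where under 1% of sites were strong, 10.54 from 1% to under 2%, 11.14 from 2% to under 4% and 11.09 from 4% up. The other 3 libraries gave the same dip and the same order of the lowest 2 classes. A gene can have a share under 1% only with over 100 covered sites, so this class holds long or CpG-rich genes. Spearman's rho between the share and the RNA level was between 0.0594 and 0.082 in the 4 libraries, over 6622 genes that share libraries and are not independent.

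**Figure D5:**
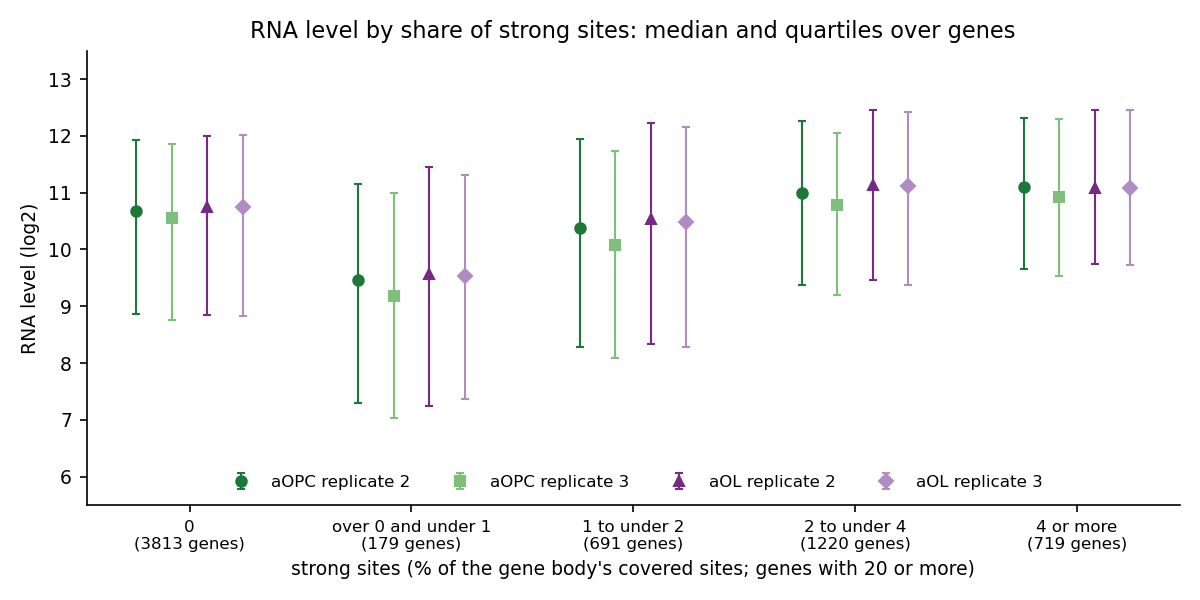
Median log2 RNA level over genes (points) with quartiles over genes (bars) in each RNA library, by the percent of a gene body's covered sites that were strong (x axis, genes with 20 or more covered sites). The class over 0 and under 1% has the lowest medians, between 9.18 and 9.56, and the classes from 2% up have medians between 10.79 and 11.14.

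Genes rich in strong sites spanned a wide range of RNA levels. In the order aOPC replicates 2 and 3, then aOL replicates 2 and 3, Wdfy3 was at 13.90, 13.59, 13.99 and 13.84, whereas Prkce was at 5.52, 6.85, 6.45 and 6.59. Ephb1 was at 14.01, 14.52, 13.90 and 13.73, with both aOL libraries below both aOPC libraries. Elovl7 was at 14.62, 14.78, 14.73 and 14.69, and Tcf7l2 at 10.94, 10.88, 10.72 and 10.70. The groups overlapped for Elovl7 and Wdfy3 and for Prkce, and did not for Tcf7l2.

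In RNA, the main test between the populations called no gene with a strong site. Of 11133 genes tested with limma at p under 0.01 and adjusted p under 0.05, 0.0808% were called in either direction, and 0 of 3129 genes with a strong site. At an unadjusted p under 0.05, 470 of them were higher and 229 lower in aOL, together 22.3% against 24% of all genes tested, and with a mean-variance trend limma called 2 higher and 2 lower (0.128% against 0.207% of all genes). With the replicate number as a block it called 24, or 0.767% against 1.14%. Leaving out a library gave 1117 calls without aOPC replicate 2 (36.1% against 36.3% of all genes) and 623 without aOPC replicate 3 (20.1% against 21.3%). It gave 22 without aOL replicate 2 (0.708% against 0.905%) and 20 without aOL replicate 3 (0.644% against 0.896%), and the population left with 1 library is then assumed to vary like the other. Their median log2 fold change was 0.19, against 0.02 over all genes. Beside these values, the median of 11 astrocyte markers was 10.06 and 9.44 in aOPC against 8.57 and 9.10 in aOL, and that of 10 microglia markers 8.32 and 7.60 against 7.43 and 7.07. The groups overlapped for 3 endothelial and mural markers, at 4.96 and 7.09 against 5.99 and 9.74. They also overlapped for 9 neuronal markers, at 7.42 and 5.35 against 5.60 and 5.26. The part of these markers in the RNA differences was not tested. Of the 20 genes with the most strong sites, 18 were tested, and the smallest adjusted p was that of Cdh13, at 7.36 and 7.23 in aOPC against 5.73 and 5.85 in aOL (log2 fold change -1.50 ± 0.19, limma adjusted p = 0.111). Among list genes, Sema6d, which encodes a semaphorin and holds 4 strong sites of 46 covered, was at 13.83 and 13.56 in aOPC against 15.37 and 15.35 in aOL (1.66 ± 0.21, limma adjusted p = 0.108). The groups did not overlap for either gene, and neither passed the test.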

How the data were processed

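Adult oligodendrocyte progenitors and oligodendrocytes were profiled by RRHP and RNA-sequencing, with 2 libraries per population and assay, grouped by title. The authors deposited RRHP tables of read counts per CCGG site and strand on GRCm38 (mm10) with annotation columns, and RNA values as log2 levels per gene; the RNA libraries share nearly the same distribution of values, and these values carry no read counts.

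The members and gene lists were chosen with earlier results of these data known. CPM values were computed on each library's summed counts. Fragment length, neighbouring bases and copies of the first 50 bases were read from the GRCm38 reference. Positions are 1-based. Sites (a minimum of 10 reads in 2 or more libraries) and gene bodies (counts summed over exonic and intronic sites, filterByExpr), were tested with edgeR 4.0.16 (quasi-likelihood test, TMM) in R 4.3.3, and RNA at a log2 level of at least 5 in at least 2 libraries with limma 3.58.1. P-values were adjusted by Benjamini-Hochberg over all features tested, and the scripts were tested on simulated data. DESeq2 1.42.0, other minimums, scalings and filters, a replicate block and leaving out each library were alternatives.

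Named were the 20 genes with the most strong sites, the 10 sites and 10 CpG island sites with the highest lowest library, the 5 runs with the most sites, the 3 called sites with the largest change in each direction, the leading genes of each list, and the 3 sites on either side of the threshold. Other names were chosen after their values were seen.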

Additional observations from a re-analysis of the deposited data

Results flagged for a closer look

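Sites outside the comparisons also passed 5 CPM in every RRHP library, above the level that a count of 0 allows. There were 137 on chromosome X, 28 on chromosome Y, 3 on the mitochondrial chromosome, 19 on unplaced or unlocalized sequence and 4 in the interval of chromosome 2 that the rule leaves out. No difference between populations was examined at these sites.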

How the results depend on the processing

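The number of strong sites was 40574 with a minimum of 3 CPM, 1467 with 10 CPM and 2285 with the read totals given in the study's methods as denominators. The intronic share was 45.6%, 52.5% and 50.4% in these cases, 50.3% for sites whose first 50 bases occur once and 49.9% with each class counted on its own. The share with another strong site within 1000 bases was 34.9%, 14.3% and 12% in the same cases, 22.1% after TMM scaling, 20.3% without Rn45s and Rn4.5s, and 16.9% with both strands of a CCGG counted once. The RNA difference between genes with and without strong sites was 0.57 with 10 CPM and 0.46 with the study's totals. Calls of strong sites were 13 (10 higher, 3 lower) with at least 10 reads in every library, 39 (32 higher, 7 lower) without a filter, and 17 higher and 11 lower without scaling beyond library totals. Gene bodies with a strong site had 31 calls with DESeq2, 26 of them lower (0.697% against 1.09% of all gene bodies), and RNA had 4 with a mean-variance trend, 2 higher and 2 lower. With the replicate number as a block, 37 strong sites were called (10 higher, 27 lower; 0.264% against 2.94% of all sites), and 24 genes in RNA (5 higher, 19 lower). The replicate numbers are shared between different reporter lines, and deviations of samples with the same number correlated at -0.038 over sites, -0.412 over gene bodies and -0.0736 over RNA. Each value rests on a single pair of library differences, so it cannot show whether samples with the same number share a batch. The crossed pairing, chosen after seeing the data, gave 159 calls among gene bodies with a strong site (47 higher, 112 lower), which is 3.58% against 3.88% of all gene bodies. Leaving out each library gave 7 to 94 calls of strong sites (2 to 15 higher, 2 to 90 lower), 5 to 981 of gene bodies (1 to 660 higher, 4 to 321 lower) and 20 to 1117 in RNA (1 to 803 higher, 18 to 314 lower), while 0.687% to 2.64% of all sites, 0.454% to 22.7% of all gene bodies and 0.896% to 36.3% of all genes were called; it also gave 14355 to 20105 strong sites, and a share near another of 20.9% to 26.7%. Without aOPC replicate 3, the RNA difference turned its sign for Dst, Tet2 and Wwox, among others. Ranges for these genes over the left-out libraries were -0.85 to 1.01, -0.73 to 1.20 and -0.61 to 0.61. The sign also turned for Mbp, Dock9, Bcas1, Mobp and Ptprz1. Each was above both aOL libraries in aOPC replicate 2 and below both in aOPC replicate 3. Mbp was at 19.58 and 17.55 in aOPC against 19.17 and 19.40 in aOL. The causes of these changes were not tested. Depth limits aOPC replicate 2 most, where 5 CPM is 36 reads, and 2 libraries per population leave few degrees of freedom.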

Other observations

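Along genes of at least 20000 bases, strong sites were sparsest at the start. In the first 10% of the gene body 738 of 124723 covered sites (0.592%) were strong, and in each later 10% between 1.44% and 1.71%. On fragments of 40 to 400 bases whose first 50 bases occur once, the first 10% had 0.819% and the others between 2.49% and 3.01%. By chromosome the rate ran from 0.845% on chromosome 7 to 1.18% on chromosome 17, and on the latter it was 1.04% without Rn45s.

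Some short genes held several strong sites among few covered ones. These genes were chosen after their values were seen, from those with 20 or more covered sites. Ndufab1, which encodes the mitochondrial acyl carrier protein, had 4 strong among 25 covered sites (16%), and the adhesion protein gene Flrt3 and the deacetylase gene Hdac10 had 3 of 20 each (15%). Ddah2, which encodes a hydrolase of methylated arginine, had 4 of 28 (14.3%), and Tk2, the mitochondrial thymidine kinase, 3 of 21. Ndufab1 was at log2 RNA levels of 12.30 and 12.77 in aOPC and 11.51 and 11.46 in aOL, and Ddah2 at 10.26 and 10.22 against 9.32 and 9.23. The groups did not overlap for either gene, and neither passed the test (limma, adjusted p = 0.145 and 0.133).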
